A study of Mus musculus with 26 samples.

Results

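Trimethylation of lysine 27 of histone H3 (H3K27me3) was mapped by CUT&RUN, in which an antibody directs a nuclease to cut out the bound chromatin, in WT mouse embryonic fibroblasts (MEFs) and in ATRXΔRBR MEFs, with 2 libraries of each. WT is the female parental line, which carries no engineered allele. ATRXΔRBR is 1 clone of that line in which Cas9 and a pair of guides removed, in frame, the RNA binding region (RBR) inside Atrx, followed by puromycin selection and colony picking, so effects of the deletion and of the clone cannot be told apart. ATRX is a chromatin remodeler of the SWI/SNF family. The comparison asks which H3K27me3 domains are found in only 1 genotype when ATRX lacks its RBR. A WT-only peak was a peak of WT replicate 1 that overlapped WT replicate 2 and neither ATRXΔRBR list, and an ATRXΔRBR-only peak was the reverse. Of 36011 peaks in WT replicate 1, 28672 were also in WT replicate 2 and 10800 were WT-only. Of 38651 peaks in ATRXΔRBR replicate 1, 26079 were also in replicate 2 and 11765 were ATRXΔRBR-only. The other lists held 38832 (WT replicate 2) and 33105 (ATRXΔRBR replicate 2) peaks. For comparison, 14378 WT replicate 1 peaks and 12339 ATRXΔRBR replicate 1 peaks overlapped all of the other 3 lists. The study calls its replicates biological, and both ATRXΔRBR libraries come from the same clone. It gives an approximate read depth for its samples as a whole, but the peak lists hold no read totals, so the depth behind each list is unknown and an absent peak means only that none was called.

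H3K27me3 is written by PRC2, the polycomb complex whose catalytic subunit is EZH2 or EZH1, and it marks silent genes. PRC2 is known to settle on CpG-rich promoters of developmental regulators such as homeobox genes, and the mark also spreads over broad domains between genes and, in female cells, over the inactive X chromosome. The RNA-Seq libraries had the profile of fibroblasts. The summed TPM of 17 fibroblast markers ranged from 11924 to 23886, and 1 or 2 of the 17 were at 0 in any library. The sums of the epithelial, endothelial, leukocyte, muscle and pluripotency lists did not exceed 14.4 TPM, and that of the neural list did not exceed 82.6 TPM. Atrx was at 628 and 433 CPM (counts scaled to library size) in the WT libraries and at 373 and 311 CPM in ATRXΔRBR, a difference that did not pass (log2 fold change -0.63 ± 0.22, SE, edgeR adjusted p = 0.14), and a gene-level count cannot check an internal deletion.

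Promoters inside wide peaks of the classes are shown for their CG content. The 250 bases before the RefSeq gene start (GRCm38.p6) are shown for the 3 widest peaks of each class that covered such bases free of protein-coding exons, with each CG dinucleotide, the base pair on which CpG islands are defined, in capitals and all sequences 5′ to 3′. Msx1 encodes a homeobox factor, Kcnd3 a potassium channel and Prdm16 a zinc finger regulator, and their promoters lay in WT-only peaks. Ugt1a7c encodes a UDP-glucuronosyltransferase and F5 coagulation factor V, and their promoters, with that of 4933412E24Rik, lay in ATRXΔRBR-only peaks.
Msx1, chr5:37824586-37824835, minus strand: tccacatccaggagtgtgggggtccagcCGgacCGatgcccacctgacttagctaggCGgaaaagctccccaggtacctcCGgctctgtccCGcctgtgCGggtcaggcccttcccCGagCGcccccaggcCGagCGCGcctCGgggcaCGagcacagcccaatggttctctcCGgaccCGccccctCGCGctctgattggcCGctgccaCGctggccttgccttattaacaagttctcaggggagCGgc
Kcnd3, chr3:105451640-105451889, plus strand: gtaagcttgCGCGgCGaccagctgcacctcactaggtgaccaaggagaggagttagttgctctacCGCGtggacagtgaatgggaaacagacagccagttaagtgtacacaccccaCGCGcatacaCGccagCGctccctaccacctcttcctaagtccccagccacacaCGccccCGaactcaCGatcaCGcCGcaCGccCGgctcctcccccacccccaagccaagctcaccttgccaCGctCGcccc
Prdm16, chr4:154636874-154637123, minus strand: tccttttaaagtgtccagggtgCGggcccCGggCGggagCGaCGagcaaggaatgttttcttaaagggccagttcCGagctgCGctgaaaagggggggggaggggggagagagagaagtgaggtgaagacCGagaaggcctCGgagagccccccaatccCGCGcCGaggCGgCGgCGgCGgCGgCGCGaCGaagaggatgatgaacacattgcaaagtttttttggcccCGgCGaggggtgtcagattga
Ugt1a7c, chr1:88094751-88095000, plus strand: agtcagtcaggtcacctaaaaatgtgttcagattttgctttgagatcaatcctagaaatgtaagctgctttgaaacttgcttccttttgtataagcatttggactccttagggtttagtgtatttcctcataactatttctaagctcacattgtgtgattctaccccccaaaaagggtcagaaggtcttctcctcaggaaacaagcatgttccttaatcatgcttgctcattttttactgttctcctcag
4933412E24Rik, chr15:60016619-60016868, minus strand: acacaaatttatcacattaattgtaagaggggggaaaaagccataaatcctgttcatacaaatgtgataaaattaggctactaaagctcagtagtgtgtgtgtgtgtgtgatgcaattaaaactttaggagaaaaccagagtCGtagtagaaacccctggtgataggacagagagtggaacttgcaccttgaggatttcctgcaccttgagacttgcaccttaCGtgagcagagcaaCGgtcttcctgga
F5, chr1:164151585-164151834, plus strand: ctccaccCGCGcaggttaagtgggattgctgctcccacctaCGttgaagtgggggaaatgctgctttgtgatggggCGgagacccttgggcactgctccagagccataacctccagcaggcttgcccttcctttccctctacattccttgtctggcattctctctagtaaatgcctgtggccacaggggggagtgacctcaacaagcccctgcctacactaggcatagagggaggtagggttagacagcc
The 3 WT-only promoters held 20 (Msx1), 18 (Kcnd3) and 22 (Prdm16) CG dinucleotides, and the 3 ATRXΔRBR-only promoters held 0 (Ugt1a7c), 3 (4933412E24Rik) and 4 (F5). The classes overlapped in this. Among the 10 protein-coding genes with the widest peak at the TSS, the same window held 0 to 33 CGs for WT-only (median 22.5, with 1 gene without any) and 0 to 18 for ATRXΔRBR-only (median 4, with 10 or more in 2 genes).

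WT-only peaks were narrow and ATRXΔRBR-only peaks were broad. The median width was 1046 bp (quartiles 576 and 2102 bp) for WT-only and 2377 bp (1195 and 4420 bp) for ATRXΔRBR-only peaks. Peaks found in all 4 lists were wider than either, with medians of 2715 bp in WT and 4118 bp in ATRXΔRBR. Peaks under 1 kb made up 48.1% of the WT-only and 19.3% of the ATRXΔRBR-only class, and peaks of 5 kb or more made up 5.98% and 20.8%. The widest members spanned 29737 bp and 62674 bp. Together the WT-only peaks covered 18.8 Mb and the ATRXΔRBR-only peaks 42.5 Mb. The whole lists differed in the same direction, with median widths of 1213 and 1267 bp in WT against 1838 and 1902 bp in ATRXΔRBR, and the part of this list-wide difference in the class difference was not tested. The size of the gap depended on the list that supplied the peaks. With peaks taken from replicate 2 of each genotype the medians were 1410 bp (WT-only) and 1852 bp (ATRXΔRBR-only), and without 1 ATRXΔRBR list the ATRXΔRBR-only median was 1344 or 1429 bp. Without 1 WT list the WT-only median was 859 or 795 bp. A class that lost a list of its own genotype had no replicate condition.

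**Figure D1:**
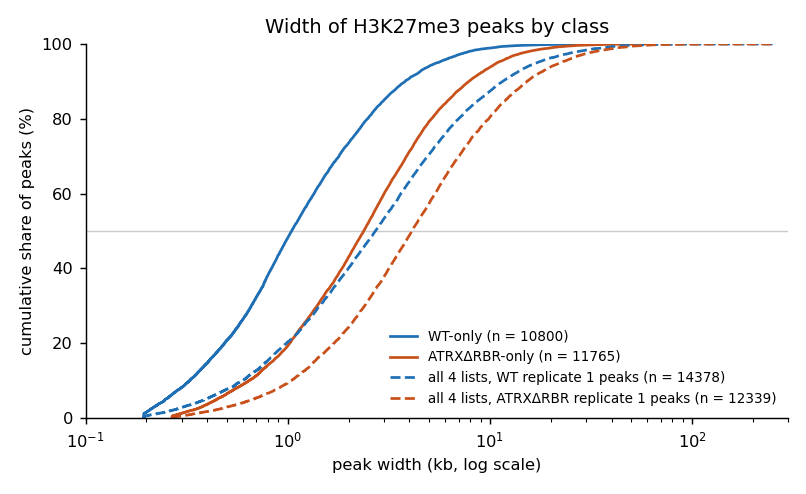
Cumulative share of peaks (%) against peak width (kb, log scale) for WT-only and ATRXΔRBR-only peaks (solid) and for peaks found in all 4 lists (dashed). The 50% line is crossed at 1046 bp by WT-only and at 2377 bp by ATRXΔRBR-only peaks, left of the matching shared peaks at 2715 and 4118 bp.

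Most members of either class lay away from promoters. A TSS (within 2 kb of the outermost start of any annotated gene) was touched by 14.6% of WT-only peaks (1577 peaks) and 13.9% of ATRXΔRBR-only peaks (1640), against 23.9% and 28.7% of the peaks found in all 4 lists. The shares depended on the genes and peaks counted, at 8.99% and 6.29% with protein-coding genes only and at 23.2% and 22.2% with a q-value of 0.01 or less in all 4 lists. Gene bodies held a further 41.4% of WT-only and 33.3% of ATRXΔRBR-only peaks. Intergenic sequence held 44.0% and 52.7%. ATRXΔRBR-only peaks were thus more often intergenic and WT-only peaks more often genic, a description over regions that share 4 libraries.

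WT-only peaks were richer in CpG than ATRXΔRBR-only peaks in each of these places. At TSSs the median was 12.04 CpG per kb for WT-only and 6.64 for ATRXΔRBR-only peaks. In gene bodies it was 7.99 against 6.18 and in intergenic sequence 6.72 against 5.27. Peaks found in all 4 lists lay between the classes at TSSs, at 9.97 (WT replicate 1 peaks) and 9.17 (ATRXΔRBR replicate 1 peaks). They were nearer to WT-only peaks in gene bodies, at 7.33 and 7.77. In intergenic sequence they were at 5.93 and 6.42. The genome as a whole held 8.26 CpG per kb. The share of TSS peaks with an observed over expected CpG ratio of at least 0.6 was 5.58% in the WT-only and 0.915% in the ATRXΔRBR-only class. The mean GC content was 42.8% ± 6.27 (SD, n = 10784 peaks on assembled chromosomes) for WT-only and 40.1% ± 4.15 (SD, n = 11763) for ATRXΔRBR-only peaks. Narrow peaks at a promoter take in less flanking sequence than broad ones, and WT-only peaks were the narrower class. In a fixed window, the 250 bases upstream of the gene, the median was 9 CG dinucleotides for the 779 protein-coding genes whose TSS carried a WT-only and no ATRXΔRBR peak and 5 for the 704 genes with the reverse. All 21938 protein-coding genes had a median of 8, with at least 1 CG in 92.4% of these windows, and the 16883 without a peak in any list had 9. The 2035 genes with a TSS peak in all 4 lists had a median of 7. A promoter with 10 or more CGs was found for 49.7% of the WT-only, 31.7% of the ATRXΔRBR-only and 46.0% of all genes. The share was 41.0% for genes with a TSS peak in all 4 lists and 48.3% for those without a peak. WT-only genes were thus near genes without a peak, and ATRXΔRBR-only genes were below both.

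The 10 protein-coding genes with the widest WT-only peak at the TSS were mostly regulators of development. Among them were the homeobox genes Msx1, Six2 and Isl1, the transcriptional regulators Prdm16, Tfap2c, Skor2 and Fezf2, the secreted Wnt antagonist Sfrp1 and the potassium channel gene Kcnd3. Their peaks spanned 23097 to 28856 bp. In each of the 10, both WT lists covered the whole 4001-bp TSS window and neither ATRXΔRBR list had a peak in it. Their RNA was low in both genotypes. Six2 (chr17, TSS at 85688274) had 0.835 and 1.00 CPM in WT and no count in either ATRXΔRBR library. Sfrp1 (chr8, TSS at 23411502) had 1.29 and 1.58 CPM in WT and likewise no count in ATRXΔRBR. Against a floor of 3 counts over the 2 libraries of a group, Six2 was at least 7.12-fold lower and Sfrp1 at least 11.1-fold lower in ATRXΔRBR (edgeR adjusted p = 0.0253 and 0.0112). Msx1 had 6 counts in each WT library and 0 in ATRXΔRBR (edgeR adjusted p = 0.0699), and 6 of the 10 genes had too few counts for a test. Six2, Sfrp1 and Msx1 had enough counts for a test through WT alone, so they could only be found lower in ATRXΔRBR.

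The 10 protein-coding genes with the widest ATRXΔRBR-only peak at the TSS lay in 4 clusters of neighbours, and most of them were tissue-restricted genes. A 62111-bp peak on chromosome 3 reached the TSS of Il2, the T cell growth factor, and of the germ cell gene Adad1. A 56216-bp peak on chromosome 13 reached Ddx4, the germ cell helicase, and the cytokine receptor gene Il31ra. A 46901-bp peak on chromosome 1 covered the whole TSS windows of Ugt1a10, Ugt1a7c, Ugt1a8 and Ugt1a9, which encode glucuronosyltransferases of the liver and gut. A 50936-bp peak on chromosome 14 covered the start shared by Gpr137c and Txndc16, and these were the only 2 of the 10 with enough reads for a test. Txndc16, which encodes a thioredoxin domain protein, fell from 21.5 and 29.0 CPM in WT to 5.18 and 6.37 CPM in ATRXΔRBR (log2 fold change -2.12 ± 0.25, SE, edgeR adjusted p = 0.00232). Gpr137c was at 3.64 and 2.08 CPM in WT and 1.06 and 0.579 CPM in ATRXΔRBR (edgeR adjusted p = 0.0733).

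Developmental gene families had more WT-only than ATRXΔRBR-only TSSs. Of all protein-coding genes 3.55% had a WT-only and 3.21% an ATRXΔRBR-only TSS. Of 109 homeobox and Pax genes outside the Hox clusters, 12 had a WT-only TSS (11.0%) and 1 an ATRXΔRBR-only TSS, that of the pituitary factor Pou1f1. Besides Msx1, Six2 and Isl1 the 12 included Alx1, Irx6, Lhx8, Pou3f1, Tlx2, Msx3, Nkx6-2 and En1, and the peaks of the 12 spanned 2997 to 28856 bp. A further 52 of the 109 (47.7%) had a peak at the TSS in all 4 lists, against 9.28% of all protein-coding genes. Counted by list, 82 and 82 of the 109 had a peak at the TSS in WT and 59 and 53 in ATRXΔRBR, while over all protein-coding genes the 4 lists marked 3419, 3607, 3552 and 3215 TSSs. Only a TSS with a peak can be in a class. Of TSSs marked in WT replicate 1, 12 of 82 in this list were WT-only, a smaller share than the 779 of 3419 over all protein-coding genes. Of those marked in ATRXΔRBR replicate 1, 1 of 59 in this list and 704 of 3552 over all were ATRXΔRBR-only. Of the forkhead and Sox genes 7 of 63 were WT-only (among them Foxd3 and Foxp2) and 0 ATRXΔRBR-only. Of the developmental bHLH factors 6 of 44 were WT-only, among them Neurod1, Neurod4, Neurod6, Hes3 and Atoh1, and 1, Ascl5, was ATRXΔRBR-only. In the Hox clusters themselves the counts were 23 of 39 genes (59.0%) marked in all 4 lists, 4 in the WT-only class (Hoxd1, Hoxa7, Hoxb7 and Hoxb8) and 0 in the ATRXΔRBR-only class. Of the Hox TSSs marked in WT replicate 1, 4 of 27 were WT-only.

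Lists of signalling and neuronal genes also held more WT-only TSSs. Of 38 Wnt ligands, Frizzled receptors and secreted antagonists, 6 were WT-only (Sfrp1, Dkk1, Sfrp2, Wnt2b, Dkk2 and Wnt4) and 1 was ATRXΔRBR-only, the receptor gene Fzd3 under a 13143-bp peak. Of 172 voltage- and ligand-gated ion channel genes, 30 were WT-only (17.4%) and 5 were ATRXΔRBR-only (2.91%). The widest WT-only channel peaks lay at the potassium channel genes Kcnd3 and Kcna1, the glutamate receptor gene Grik3 and the potassium channel gene Kcnq3. Clustered protocadherins, adhesion genes of neurons, gave 7 WT-only and 0 ATRXΔRBR-only TSSs of 57. Large families of low RNA in these libraries had similar counts in both classes, with 48 WT-only and 54 ATRXΔRBR-only TSSs of 1464 olfactory and vomeronasal receptor genes and 3 and 4 of 110 keratin genes. Of 394 Zfp zinc finger genes 7 were WT-only (1.78%), below the 3.55% of all protein-coding genes. The 13 that were ATRXΔRBR-only (3.30%) were near the overall 3.21%. The WT lists marked the TSS of 34 and 38 of the 394 Zfp genes. Of TSSs marked in WT replicate 1, 7 of 34 in the Zfp list were WT-only, near the 779 of 3419 over all protein-coding genes. In the ion channel list 30 of 83 were, a larger share. No gene of 15 PRC2 subunits and H3K27 demethylases carried a peak at its TSS in any list. No test was made of any of these counts.

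**Figure D2:**
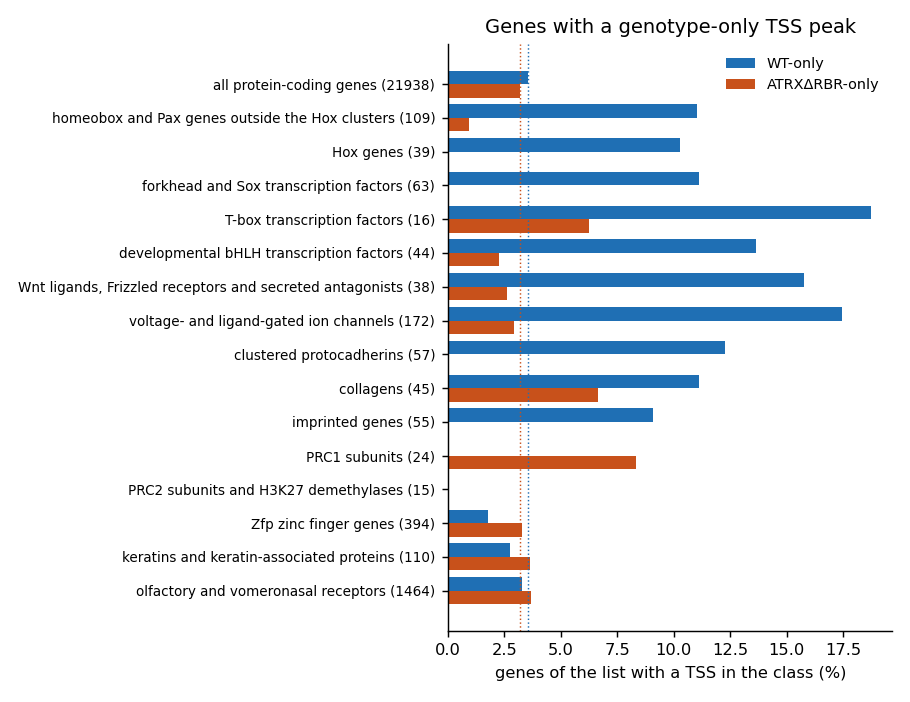
Share of each gene list (%) with a WT-only (blue) or ATRXΔRBR-only (orange) peak at the TSS, with the number of genes in parentheses. Shares are of all genes of a list, with or without a peak. Dotted lines mark the shares over all protein-coding genes, 3.55% and 3.21%; the transcription factor, Wnt and ion channel lists exceed the blue line, with 17.4% for ion channels.

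Both classes were clustered along the chromosomes, and each class lay apart from the other. Runs of 3 or more members no more than 50 kb apart held 79.3% of WT-only and 75.4% of ATRXΔRBR-only peaks. Among peaks found in all 4 lists, the shares were higher, at 85.7% and 82.1%. Single members made up 11.6% and 13.05% of the classes, against 7.60% and 9.73% of the shared peaks. With members of a q-value of 0.01 or less only, runs held 52.1% of WT-only and 58.6% of ATRXΔRBR-only peaks, which turns the order of the classes, and with a 20-kb gap they held 62.4% and 60.5%. For 93.4% of either class the nearest other member was of the same class. The median gap was 3389 bp to the nearest member of the same class and 272131 bp to the opposite class for WT-only peaks. For ATRXΔRBR-only peaks these gaps were 4186 and 480049 bp. The classes differed in their distance from any peak of the other genotype, with a median of 14108.5 bp for WT-only and 49907 bp for ATRXΔRBR-only peaks. Few members sat at the edge of the definition. A peak of the other genotype lay within 100 bp of 96 WT-only and 52 ATRXΔRBR-only peaks, and the non-members closest to the edge overlapped the other genotype by 3 and 4 bp.

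The largest runs showed domains covered in 1 genotype and nearly bare in the other. The largest WT-only run held 63 members over 544 kb between Rragc and 3100002H09Rik (chr4:123967582-124511202), with no protein-coding gene inside. Peaks covered 46.0% and 53.6% of it in the WT lists and 1.81% and 0.758% in the ATRXΔRBR lists. The next held 61 members over 591 kb between Dthd1 and Nwd2 (chr5:62905803-63497172), covered to 25.1% and 30.9% in WT and to 0.316% and 0% in ATRXΔRBR. Of the next 3, 2 lay on the X chromosome, 1 of them over Gpc3, which encodes glypican 3, a cell-surface proteoglycan, and 1 lay over the calcium pump gene Atp2b2 and the GABA transporter gene Slc6a11 on chromosome 6. The largest ATRXΔRBR-only run held 68 members over 864 kb between the transcription factor gene Ets1 and Kirrel3 (chr9:32873097-33736846), covered to 49.8% and 41.5% in ATRXΔRBR and to 0.893% and 1.53% in WT. The second, between Trib1 and Fam84b (chr15:59887434-60396477), held 50 members and had no WT peak in either list. The third covered Syne1, Vip and Myct1 on chromosome 10, where Rgs17, a regulator of G protein signalling at its edge whose TSS was marked in all 4 lists, fell from 6.45 and 8.51 CPM in WT to 0.951 and 0.724 CPM in ATRXΔRBR (log2 fold change -3.16 ± 0.37, SE, edgeR adjusted p = 0.00227). Within the same run Syne1 was at 33.2 and 68.6 CPM in WT and 103 and 54.0 CPM in ATRXΔRBR (edgeR adjusted p = 0.422). These runs were chosen for their class peaks, so the coverage describes them and tests nothing.

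**Figure D3:**
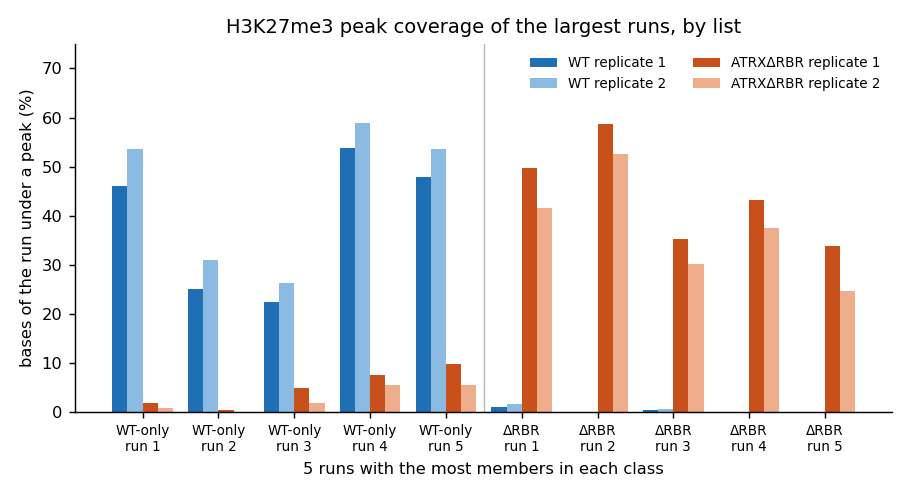
Bases under an H3K27me3 peak (%) in the 5 runs with the most members of each class, one bar per list. WT lists cover 22.3% to 58.9% of the WT-only runs and at most 1.53% of the ATRXΔRBR-only runs, and the ATRXΔRBR lists cover 24.6% to 58.6% of the latter and at most 9.71% of the former.

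The classes were unevenly spread over chromosomes. ATRXΔRBR-only peaks outnumbered WT-only peaks on 8 of 20 chromosomes, by 1199 to 522 on chromosome 1, 1043 to 421 on chromosome 3, 833 to 339 on chromosome 13 and 903 to 293 on chromosome 15. WT-only peaks outnumbered the others on 12, by 912 to 343 on chromosome 6, 1012 to 512 on chromosome 5 and 779 to 469 on chromosome 4. The libraries of a genotype agreed in this. Chromosome 15 had 1597 and 1700 peaks in WT and 2290 and 2080 in ATRXΔRBR, and chromosome 6 had 1965 and 2060 in WT and 1407 and 1079 in ATRXΔRBR. Median RNA log2 fold changes per chromosome moved as well, by 0.33 on chromosome 1, 0.29 on chromosome 15, -0.22 on chromosomes 5 and 9 and -0.25 on chromosome 18, and were -0.02 on chromosome 3, 0.03 on chromosome 13 and -0.06 on chromosome 6. Across the 20 chromosomes, which share the same libraries, the log2 ratio of WT-only to ATRXΔRBR-only peaks and the median RNA change had a Pearson r of -0.64, given as a description. The chromosome medians used the 12755 genes with a mean of 1 CPM or more over the 4 libraries. Among these, 60 of 633 genes on chromosome 6 were lower (9.48%) and 26 higher in ATRXΔRBR (edgeR). On the X chromosome 39 of 413 were lower (9.44%) and 8 higher. Of all 16334 genes tested, which had no such limit, 4.07% were lower and 2.79% higher. The share of chromosome 6 in the EZH2 lists was 4.49% and 4.47% in WT and 3.64% and 2.61% in ATRXΔRBR, and its share of the ATRX lists was 4.59% and 4.16% in WT and 2.71% and 2.14% in ATRXΔRBR. The part of chromosome-wide shifts in the peak counts was not tested, and the DNA copy number of the clone was not analysed here. Without the 5 shifted chromosomes the classes held 7873 and 8223 peaks. On the X chromosome 864 peaks were WT-only and 556 ATRXΔRBR-only, from lists of 2652 and 3105 peaks in WT and 2473 and 1833 in ATRXΔRBR. The fewer ATRXΔRBR-only peaks covered more of the X, 1.71 Mb against 1.41 Mb for WT-only peaks. All X peaks covered 5.35 and 6.60 Mb in the WT lists and 7.27 and 5.42 Mb in the ATRXΔRBR lists, with overlapping groups. Xist, the RNA that coats the inactive X, was at 857 and 2095 CPM in WT and 1518 and 682 CPM in ATRXΔRBR, with overlapping groups (log2 fold change -0.42 ± 0.45, SE, edgeR adjusted p = 0.669).

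**Figure D4:**
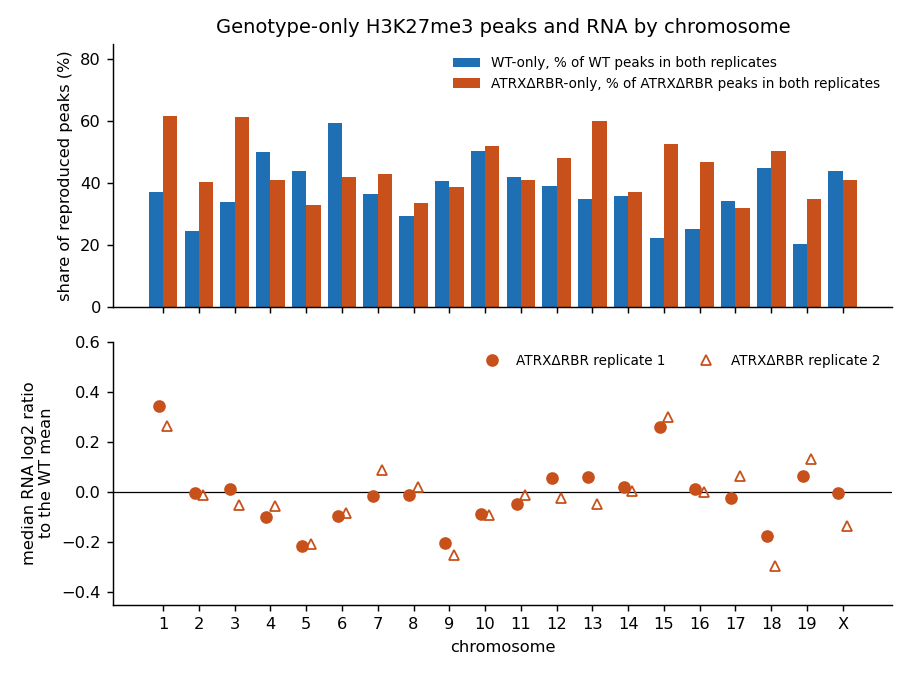
Top, WT-only and ATRXΔRBR-only peaks as shares (%) of the peaks found in both replicates of their genotype, by chromosome. Bottom, median log2 ratio of RNA in each ATRXΔRBR library to the WT mean; chromosomes 1 and 15 sit above 0 in both libraries, chromosomes 5, 9 and 18 below, and chromosomes 3 and 13, where ATRXΔRBR-only shares reach 61.4% and 60.2%, near 0.

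RNA-Seq of the same genotypes was not used by the classes. More genes were lower than higher among those with an ATRXΔRBR-only TSS, and also among those with a TSS peak in all 4 lists. The 4 libraries held 9574174 to 13694802 estimated counts. Of 16334 genes tested, 1119 were called (6.85%; edgeR, adjusted p under 0.05), 455 higher (2.79%) and 664 lower (4.07%) in ATRXΔRBR. Of the 704 protein-coding genes with an ATRXΔRBR-only TSS, 321 passed the filter on low counts, and 63 of them fell (19.6%) and 5 rose (1.56%). Of the 779 with a WT-only TSS, 211 passed, and 65 fell and 12 rose. Of the 2035 with a TSS peak in all 4 lists, 585 passed, and 125 fell (21.4%) and 33 rose (5.64%). A gene that passed the filter through WT counts alone had to be lower in ATRXΔRBR, and 39 of the 211 and 29 of the 585 had no count in either ATRXΔRBR library. With a mean count of 10 or more required in each genotype, chosen after seeing this, 257 genes with an ATRXΔRBR-only TSS were left, of which 45 fell and 3 rose (median log2 fold change -0.27). Under the same limit 103 genes with a WT-only TSS were left, of which 16 fell and 12 rose (median 0.00022). Of all 12389 genes at that limit 2.66% fell and 3.03% rose. The 320 protein-coding genes at that limit with a TSS peak in all 4 lists had 45 that fell and 24 that rose. In these bulk libraries fewer cells that express a gene and less RNA per cell cannot be told apart.

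**Figure D5:**
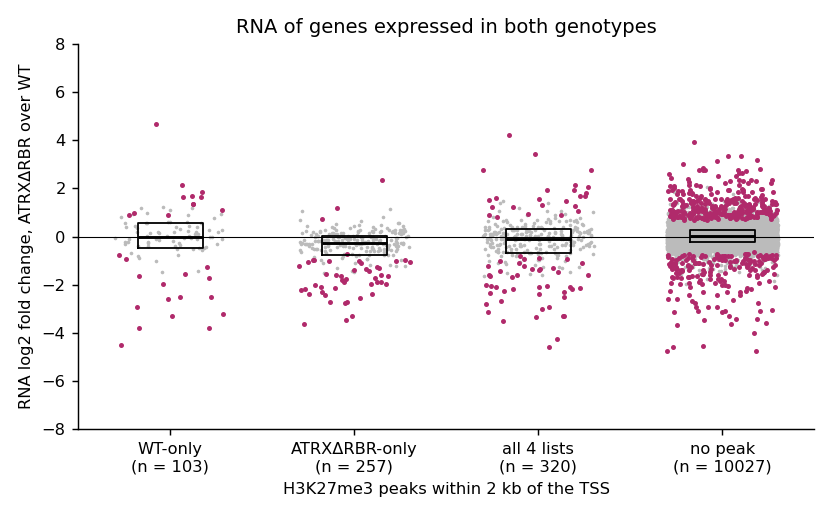
RNA log2 fold change (ATRXΔRBR over WT) of protein-coding genes with a mean count of 10 or more in each genotype, by H3K27me3 class of the TSS; boxes show quartiles and median, purple points genes called by edgeR. The ATRXΔRBR-only box lies mostly below 0 (median -0.27) with 45 genes lower and 3 higher, and the WT-only box is centred near 0 with 16 lower and 12 higher. Genes marked in all 4 lists have a median of -0.081, with 45 lower and 24 higher.

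Genes with an ATRXΔRBR-only TSS that fell had a wide range of RNA in WT. Zfp503, a zinc finger corepressor, fell from 101 and 72.0 CPM to 17.3 and 15.7 CPM under a 6573-bp ATRXΔRBR-only peak (log2 fold change -2.39 ± 0.23, SE, edgeR adjusted p = 0.000921). Dchs1, which encodes a large cadherin of the Fat-Dachsous pathway, fell from 17.5 and 18.8 CPM to 0.740 and 0.290 CPM (log2 fold change -5.21 ± 0.38, SE, edgeR adjusted p = 0.000421). Cacng7, a calcium channel subunit gene, fell from 22.6 and 19.8 to 3.59 and 3.69 CPM. Pde5a, a cGMP phosphodiesterase gene under an 18107-bp peak, fell from 4.78 and 4.92 to 0.317 and 0.217 CPM. Tfpi, which encodes an inhibitor of the tissue factor pathway of coagulation, fell from 7.06 and 10.3 to 0.317 and 0.0724 CPM. The ranges of the genotypes did not overlap in any of these 5 genes, which were picked from genes called lower, so this adds no support. Mlkl, the executioner of necroptosis, had 52 and 60 counts in WT and none in ATRXΔRBR, which makes it at least 34.7-fold lower (edgeR adjusted p = 0.0019), though the peak reached its TSS window by 179 bp in ATRXΔRBR replicate 1 only. The 5 genes with an ATRXΔRBR-only TSS that rose were Zfp286, H2-DMb2, Sybu, Asns and Inpp4a, and asparagine synthetase (Asns) went from 213 and 193 to 444 and 470 CPM (log2 fold change 1.17 ± 0.16, SE, edgeR adjusted p = 0.00495). At Zfp286 the peak reached the TSS window by 338 bp in ATRXΔRBR replicate 1 only.

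Genes with a WT-only TSS moved both ways. The 12 that rose, against 65 that fell, were led by Sgsm1, a regulator of Rab GTPases, at 1.44 and 2.08 CPM in WT and 45.2 and 44.0 CPM in ATRXΔRBR (log2 fold change 4.66 ± 0.25, SE, edgeR adjusted p = 0.000214), followed by the insulin-like growth factor binding protein gene Igfbp4 (2.16 ± 0.29), C1ql1 (1.87 ± 0.33), Rap1gap (1.69 ± 0.27) and Igfbp7 (1.67 ± 0.27). These 5 risers, and the 5 of the paragraph before, were named after their values were seen. Of the 65 that fell, 26 had no count in either ATRXΔRBR library and passed the filter on low counts through WT alone, among them the next 4. Mageh1 on the X chromosome had 163 and 109 counts in WT and was at least 83.2-fold lower (edgeR adjusted p = 0.0007). The kinase gene Mark1 was at least 32.2-fold lower, the LIM domain gene Lmo1 at least 26.8-fold lower and the adenylate kinase gene Ak4 at least 18.8-fold lower. The 39 tested genes of the class with no count in ATRXΔRBR, called or not, lay on 15 chromosomes. Their TSS window held an EZH2 peak for 31 and 31 of them in WT and for 3 and 25 in ATRXΔRBR. Of all 779 genes with a WT-only TSS, 53.4% and 50.2% had one in WT and 10.5% and 36.7% in ATRXΔRBR. The low share in ATRXΔRBR replicate 1 was thus found over the whole class.

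EZH2 lists followed the WT-only class in part. WT-only peaks overlapped an EZH2 peak in 7.27% and 6.35% of cases in the WT libraries and in 1.77% and 3.82% in ATRXΔRBR, so the groups did not overlap (means 6.81% ± 0.648 and 2.80% ± 1.45, SD, n = 2 each; two-sided exact permutation p = 0.33, the smallest that 2 against 2 allows). ATRXΔRBR-only peaks overlapped one in 1.24% and 1.03% in WT and in 5.24% and 0.731% in ATRXΔRBR (exact permutation p = 1). The higher mean in ATRXΔRBR rested on replicate 1, and replicate 2 was below both WT libraries. Replicate 2 was also the lowest at WT replicate 1 peaks found in all 4 H3K27me3 lists. These overlapped an EZH2 peak in 15.6% and 13.8% of cases in WT and in 22.3% and 10.5% in ATRXΔRBR. At TSSs the shares of WT-only peaks were 29.2% and 27.2% in WT against 5.14% and 18.9% in ATRXΔRBR. Of the 2035 protein-coding genes with a TSS peak in all 4 H3K27me3 lists, 57.9% and 55.6% had an EZH2 peak there in WT. In ATRXΔRBR 52.3% and 48.9% did. All 10 genes with the widest WT-only peaks had an EZH2 peak in the TSS window in both WT libraries and in ATRXΔRBR replicate 2, and none had one in ATRXΔRBR replicate 1. The 12 homeobox genes of the class had one in 12, 12, 2 and 12 cases in the same order of WT replicates 1 and 2 and ATRXΔRBR replicates 1 and 2. The EZH2 libraries of ATRXΔRBR thus differed from each other at these promoters, with lists of 22418 and 11408 peaks against 22316 and 18351 in WT. EZH2 peaks were also frequent at the TSSs of the 16883 genes with no H3K27me3 peak, at 51.6% and 47.5% in WT and 53.1% and 34.4% in ATRXΔRBR. ATRX peaks were nearly absent from both classes, with at most 0.139% of members overlapped in any library of either genotype, and likewise from peaks found in all 4 lists, at 0.0417% to 0.308%.

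Among the genes that build or remove the mark, 1 of 14 tested was called, beside 6.85% of all genes tested. Ezh1, the alternative catalytic subunit, rose from 24.2 and 27.4 CPM in WT to 57.4 and 48.5 CPM in ATRXΔRBR (log2 fold change 1.03 ± 0.19, SE, edgeR adjusted p = 0.0161). Ezh2 itself was at 145 and 136 CPM in WT and 178 and 164 CPM in ATRXΔRBR (edgeR adjusted p = 0.392). Suz12, Eed, Jarid2 and the demethylase genes Kdm6a and Kdm6b did not pass the test. Of the 24 PRC1 subunit genes, which encode the partner complex that binds the mark, Pcgf3 and Pcgf5 had an ATRXΔRBR-only TSS, and neither passed the test (edgeR adjusted p = 0.418 and 0.724).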

How the data were processed

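H3K27me3 CUT&RUN was analysed in WT and ATRXΔRBR MEFs (2 libraries each), with EZH2 and ATRX CUT&RUN and RNA-Seq of the same genotypes. The authors used Bowtie2 (mm10) for alignment and the broad mode of MACS2 for each library on its own; the deposited peak lists give a score, a fold (ratio) enrichment and −log10 p and q values, which depend on each library's depth and were not compared between lists. For RNA-Seq, reads were aligned with STAR and the deposited RSEM tables give estimated counts, TPM and FPKM (FPKM not used here). IgG lists and the authors' remaining files were not used here. Classes used an overlap of at least 1 bp. Genes and TSSs came from GENCODE M21 (GRCm38) and bases from the RefSeq genome of that build, on 21 chromosomes. Estimated counts were rounded, genes with a total of 10 or less over the 4 libraries were dropped, and edgeR 4.0.16 (quasi-likelihood test, TMM, Benjamini-Hochberg over all genes, threshold 0.05) compared genotypes; DESeq2 1.42.0 was an alternative. The edgeR step and the interval code were tested on simulated data. EZH2 and ATRX shares were compared by exact permutation over libraries. P-values measure the spread between the replicate libraries, which the study calls biological. CPM values are scaled by TMM. Named genes were the 10 with the widest class peak at the TSS, those called in RNA-Seq with the largest fold change, the genes of the 5 largest runs, and genes of preset lists; the members, lists and rules were chosen with earlier results of these data known. Some genes that these rules name are not reported here. The replicate numbers were checked for pairing by the correlation of deviations of same-numbered libraries.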

Additional observations from a re-analysis of the deposited data

How the results depend on the processing

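An absent peak is a call, not a measured zero. The WT-only class ran from 11754 to 18200 peaks and the ATRXΔRBR-only class from 12352 to 20096 when each list was left out in turn; the extremes came without WT replicate 1 (18200) and without ATRXΔRBR replicate 2 (20096), where a class loses its replicate condition. With a q-value of 0.01 or less in all 4 lists the classes held 4315 WT-only and 4655 ATRXΔRBR-only peaks, with that limit on members only 3363 and 5225, and with peaks joined within 3 kb 5043 and 7140. WT-only peaks stayed the narrower class in each of these 3 settings, with median widths of 2982 and 5299 bp, 1949 and 3969 bp, and 2058 and 4059.5 bp. An overlap of 50%, equal list lengths, replicate 2 as the anchor and a 1-kb margin kept both counts within 1.5 times; the last 3 settings left medians of 1203, 1410 and 1079 bp for WT-only peaks.

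The EZH2 difference at ATRXΔRBR-only peaks ran from -0.404 to 4.11 percentage points over the left-out EZH2 libraries and turned negative (-0.404) without ATRXΔRBR replicate 1; that at WT-only peaks stayed negative (-5.04 to -2.99). RNA-Seq calls ran from 1055 to 1520 with a library left out, 1123 in DESeq2 and 1071 with the replicate block, which moved no count by over 1.5 times; 1812 genes were called with all 6 libraries in 1 fit, with 19 WT-only and 9 ATRXΔRBR-only TSS genes higher. Same-numbered libraries deviated in opposite directions (r = -0.72), and with crossed numbers, chosen after seeing the data, the replicate block called 5585 genes, with 33 higher and 103 lower WT-only and 28 higher and 143 lower ATRXΔRBR-only TSS genes. With a mean count of 10 or more in each genotype 16 WT-only TSS genes were lower (median 0.00022, from -0.75 otherwise) and 3 ATRXΔRBR-only TSS genes higher. Of 55 named genes called, 7 lost the call in DESeq2 and 0 to 6 in any other setting, and 0 changed direction; those named above that lost it were Inpp4a and H2-DMb2.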

Other observations

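In MEFs depleted of ATRX by knockdown, whose H3K27me3 lists were far shorter (7241 and 6336 peaks), 6.63% and 5.53% of WT-only peaks and 5.26% and 4.27% of ATRXΔRBR-only peaks were overlapped, against 21.4% and 19.8% of the WT replicate 1 peaks found in all 4 lists. Neither class was therefore mostly present in those lists, and the short lists limit what their absence shows.

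Gene bodies with 3 or more members of 1 class and none of the other gave 374 protein-coding genes for WT-only and 406 for ATRXΔRBR-only peaks. Of the latter, 171 had enough counts for a test, and 43 fell and 9 rose in ATRXΔRBR (edgeR), beside 4.07% lower and 2.79% higher of all genes tested. Of the 43 that fell, 5 had no count in either ATRXΔRBR library and passed the filter on low counts through WT alone. Epha3, an ephrin receptor gene, fell from 11.1 and 14.7 CPM in WT to 0.106 and 0.145 CPM (log2 fold change -6.53 ± 0.44, SE, edgeR adjusted p = 0.000335). Of the 374 with WT-only peaks, 72 were tested, and 12 fell, 8 of them with no count in ATRXΔRBR, and 6 rose.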
